A study of Mus musculus with 5 samples.

Results

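The genes that encode collagen chains were followed through RNA-seq of 5 mouse embryonic fibroblast cultures that differed in the homeobox transcription factors Meis1 and Prep1. Members were all genes whose symbol reads Col, a number, a and a number, and 40 such symbols had a locus of their own among 21372 single-gene symbols. Of these 40 chains, 21 reached 1 scaled unit in at least 1 library and 19 did not. Levels are the deposited FPKM (fragments per kilobase of transcript, relative to library size), scaled to an upper quartile of 10 units per library. Differences are log2((level + 1)/(level + 1)), which understates changes of genes with low levels, and a gene counts as 2-fold apart at a value of 1 or more in size.

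Collagens are secreted matrix proteins in which alpha chains wind around one another into a helix with glycine at every turn. Fibrillar collagens form the tensile fibrils of connective tissue, type IV collagens form the sheet of basement membranes, and type VI collagen forms beaded filaments around cells. FACIT collagens sit on the surface of fibrils, and multiplexins lie between basement membranes and the tissue beneath. Fibroblasts are the main producers of types I, III, V and VI.

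The fibroblasts came from C57BL/6 embryos of stage E14.5 and were at passage 30 per the labels. EV cells are Prep1 hypomorphic, that is with an allele of reduced Prep1 expression, and carry an empty vector. M, P and MP cells share that hypomorphic background and are labelled as overexpressing Meis1, Prep1 or both. WT cells have a wild-type Prep1 genotype, and their label names no vector. Genotype, line and infection therefore cannot be told apart in WT, and every group is 1 library of 1 culture, so differences are between libraries and no p-value was computed. In bulk RNA, fewer cells of a type and less RNA per cell cannot be told apart either.

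Depth is not given by the files. The deposited upper quartile spanned 44.3-fold from MP to M, which the scaling removes. The 99th percentile stood only 1.73 (WT) to 2.01 times (EV) above the upper quartile, so differences among well expressed genes are compressed, and most in WT. Meis1 stood at 7.91 units (EV), 16.1 (M), 8.55 (P), 14.7 (MP) and 11.998 (WT). Pknox1, which encodes Prep1, stood at 2.06, 3.11, 0.534, 0.542 and 10.7 in the same order, so the libraries labelled P and MP go against their labels and any direction drawn from them carries that limit. Of 8 fibroblast markers with a locus of their own, all 8 reached 5 units in at least 1 library, though Pdgfra stood at 2.43 in EV against 11.4 in WT, and their summed level was 84.1 to 98.2 units across libraries. Summed epithelial and endothelial markers stayed at 3.41 units or less. Skeletal muscle markers summed to 1.39 to 5.06 units, with Acta1 at 4.92 in P. Macrophage and leukocyte markers summed to 10.8 to 15.1 units, mostly from Cd14 (9.25 to 11.6), with Csf1r at 1.14 to 3.53. The other 3 of 5 with a locus of their own were under 1 unit in every library. The part of such cells was not tested. Of the markers of other skeletal cells, 4 of 6 for cartilage and 5 of 6 for bone were under 1 unit in every library. The exceptions were Sox9 (5.03 to 7.66 units), Acan (0.0246 to 9.49) and Runx2 (6.28 to 8.93).

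**Figure D1:**
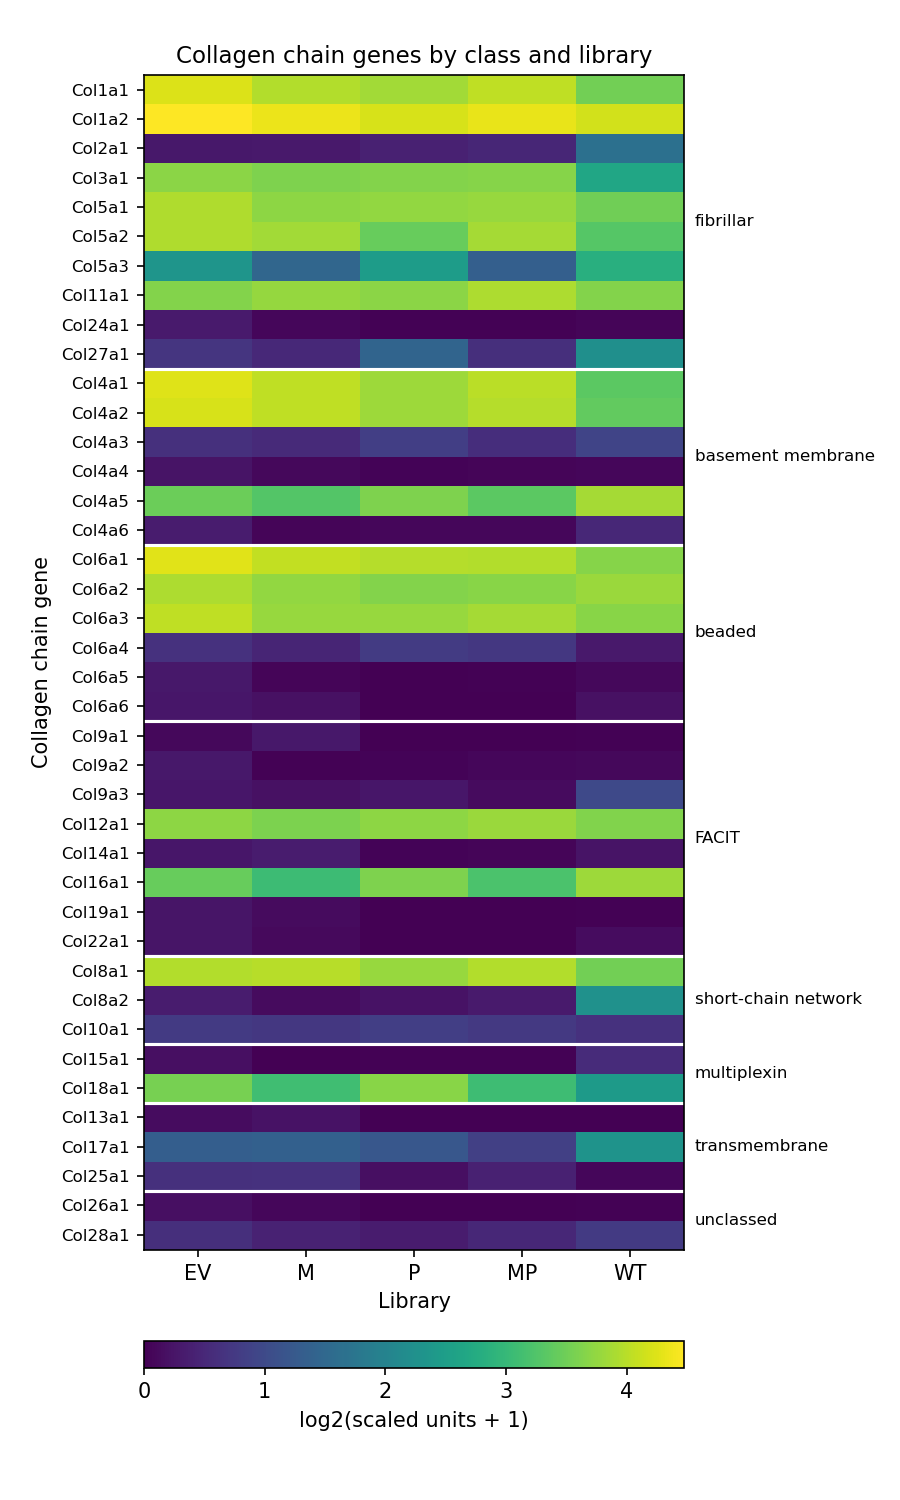
Level of each of the 40 collagen chain genes (rows, grouped by class) in the 5 libraries (columns), as log2(scaled units + 1) by colour. The same 15 chains are at 5 units or more in every library, and the bright rows of type I, IV, V and VI chains contrast with the dark rows of 19 chains that stay under 1 unit throughout.

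At 5 units or more stood 16 of the 40 chains in every library, 15 of them the same ones in all 5. That is 40% of the chains, near the 38.2 to 41.9% of all symbols at this level. These were Col1a1, Col1a2, Col3a1, Col5a1, Col5a2 and Col11a1 among fibrillar chains, Col4a1, Col4a2 and Col4a5 among basement membrane chains, Col6a1, Col6a2 and Col6a3 among beaded chains, the FACIT chains Col12a1 and Col16a1, and Col8a1. The sixteenth was the multiplexin Col18a1 in the 4 hypomorphic lines and the fibrillar chain Col5a3 in WT. The 15 include the fibroblast types I, III, V and VI and the common type IV pair.

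Type I collagen, the main fibril protein of connective tissue, is made of Col1a1 and Col1a2 chains. Col1a2 had the highest level of all chains in each library, at 21.2 units (EV), 19.4 (M), 17.4 (P), 19.0 (MP) and 17.1 (WT). Col1a1 stood at 17.9, 14.51, 13.5, 15.5 and 10.5 units in the same order. Col1a1 was lowest in WT, and its ratio to Col1a2 was 0.616 there against 0.748 to 0.841 in the hypomorphic lines. Col1a2 carried the authors' FAIL mark, a test that could not be completed, in all 4 tables, as did Col4a5, Col5a3, Col12a1 and Col16a1.

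Type V and XI chains regulate the width of fibrils. Col5a1, the common chain of type V collagen, stood at 14.3 units (EV), 12.2 (M), 12.5 (P), 12.7 (MP) and 10.3 (WT). Its partner Col5a2 stood at 14.3, 13.4, 9.81, 13.6 and 8.80 units, so P and WT were low. Col11a1, better known from cartilage, stood at 11.6, 12.6, 12.01, 14.2 and 11.4 units, highest in MP.

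Many chains typical of other tissues stayed low. Of the 8 FACIT chains measured, 6 stayed under 1 unit in every library, among them the type IX chains Col9a1, Col9a2 and Col9a3 that coat cartilage fibrils. Col10a1, made by hypertrophic chondrocytes, stood at 0.559 to 0.771 units, and Col4a3 and Col4a4, the chains of kidney and lung basement membranes, at no more than 0.894 and 0.175. Col6a4, Col6a5 and Col6a6, the late-found alternative chains of type VI collagen, did not exceed 0.711 units. Odorant and vomeronasal receptor genes, which fibroblasts should not use, had a 95th percentile of 0.536 units (EV), 0.817 (M), 0.0469 (P), 0.0929 (MP) and 0.0669 (WT). At or below that level lay 17 (EV), 22 (M), 12 (P), 13 (MP) and 8 (WT) chains, so low chains can be read less well in EV and M.

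The wild-type line was compared with the hypomorphic lines to see how cells with normal Prep1 differ. Against EV, 3 of 21 kept chains were at least 2-fold higher in WT (Col8a2, Col27a1 and Col2a1) and 2 were at least 2-fold lower (Col18a1 and Col3a1). Over all genes kept, 6.44% were called higher and 3.01% lower. Against P in place of EV, 3 of 21 chains were higher (Col8a2, Col2a1 and Col17a1) and 1 lower (Col18a1), with 6.38% and 1.85% over all genes. With each library scaled to its median, the split of higher to lower chains was 3 to 7 against EV and 1 to 2 against P, and with values matched by rank to EV it was 3 to 3 and 1 to 2. Col2a1 and Col8a2 were kept through WT alone and so had to differ. In the comparison with EV, Col27a1 (0.621 units in EV) also passed the filter through WT alone. All chains called higher than EV thus passed it only through WT.

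Col3a1, the type III chain of pliable tissues such as skin and vessels, stood at 11.9 (EV), 11.1 (M), 11.6 (P) and 11.7 units (MP), but at 5.29 (WT). The 4 hypomorphic lines lay within 1 unit of one another and WT lay clearly below them. The log2 difference of WT was -1.04 from EV, -0.998 from P and -0.95 from the lowest hypomorphic line. Ranked among 11769 genes kept in any library, Col3a1 moved from percentile 63.0 to 71.0 in the hypomorphic lines to 25.1 in WT. Col5a2 is the next gene on chromosome 1, and it was also lowest in WT (8.80 units), though close to P (9.81).

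Col18a1, whose C-terminal fragment is endostatin, an inhibitor of vessel growth, stood at 10.8 units (EV), 7.57 (M), 11.7 (P), 7.48 (MP) and 4.41 (WT). WT was again below every other library, with log2 differences of -1.12 from EV, -1.24 from P and -0.65 from the lowest, MP. By rank it stood at percentile 21.7 in WT and 41.3 to 73.2 elsewhere.

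Col8a2, a short-chain collagen of Descemet's membrane in the cornea, was on the opposite side. It stood at 0.263 (EV), 0.102 (M), 0.163 (P) and 0.247 units (MP), against 3.78 (WT) (log2 1.92 over EV and over the highest hypomorphic line). Its family partner Col8a1 went the other way and stood at 10.5 units in WT and 12.8 to 14.99 in the rest. The Col8a1 level was therefore 2.78 times that of Col8a2 in WT but at least 55.4 times in each hypomorphic library. Col8a2 was kept through WT alone, so the hypomorphic ratios divide by levels near the floor. In EV and M its level lay under the receptor 95th percentile (0.536 and 0.817 units).

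Upstream sequences are shown for the chain that was lowest in WT relative to all other lines and the chain that was highest, to allow their promoters to be compared. The 250 bases before the RefSeq start site of Col3a1 (GRCm38.p6, chr1:45311288-45311537, plus strand) and of Col8a2 (chr4:126286544-126286793, plus strand) follow, 5′ to 3′, with matches to the motifs searched in capitals.
Col3a1: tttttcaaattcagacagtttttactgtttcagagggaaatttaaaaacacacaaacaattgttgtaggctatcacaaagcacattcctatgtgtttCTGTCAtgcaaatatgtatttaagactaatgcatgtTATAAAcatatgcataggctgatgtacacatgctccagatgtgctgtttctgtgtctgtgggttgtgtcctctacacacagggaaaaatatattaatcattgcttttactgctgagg
Col8a2: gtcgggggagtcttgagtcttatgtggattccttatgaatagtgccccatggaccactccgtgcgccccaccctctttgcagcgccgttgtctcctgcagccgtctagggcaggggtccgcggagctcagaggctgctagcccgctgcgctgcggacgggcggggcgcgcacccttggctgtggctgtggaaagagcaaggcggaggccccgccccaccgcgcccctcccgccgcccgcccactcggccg
These motifs were searched on both strands of windows from 250 bases before to 50 after each start. They were the AP-1 site TGANTCA, the Meis and Prep core TGACAG, the Pbx composite TGATTGAC, which can overlap the core, the TATA box TATAAA and the CCAAT box. The Col3a1 stretch is rich in A and T and holds the Meis and Prep core on its minus strand (first base at -153). It also holds the letters TATAAA (-117). The Col8a2 stretch, rich in G and C, holds none of the letters searched. Windows with the core made up 19.2% of all 32851 RefSeq windows, and 6 of the 31 collagen chains with a window had it. The letters TATAAA were in 13.6% of all windows and in those of 4 of the 31 chains.

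Other kept chains highest in WT, at under 5 units in every library, are known from cartilage or epithelium. Col27a1, a fibrillar chain of cartilage and bone growth, stood at 0.621 units (EV), 0.428 (M), 1.73 (P), 0.526 (MP) and 3.71 (WT). Col2a1, the main cartilage fibril chain, stood at 0.217, 0.233, 0.332, 0.398 and 2.15. Col17a1, the transmembrane chain of epidermal hemidesmosomes, stood at 1.52, 1.58, 1.31, 0.791 and 3.91. WT was the highest library for all of these. Cartilage markers stood beside them at summed levels of 6.88 units in WT and 8.33 to 14.98 elsewhere. Acan, the main cartilage proteoglycan, was lowest in WT (0.0246 units), Matn3 (0.552) and Comp (0.383) were highest there, and Sox9 lay within the range of the rest. Matn1 was listed at 0 in P, MP and WT and Hapln1 in P and WT. The part of such cells in these levels was not tested. Epithelial markers summed to 0.439 units in WT, the lowest of the 5 libraries, and 6 of 7 were under 1 unit in every library.

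Over the whole range of the hypomorphic lines, WT was the lowest library for 12 of 21 kept chains and the highest for 7, against 39.6% and 32.1% of all genes. Matched by rank, WT was no longer the lowest library for Col1a2, Col6a3 and Col11a1, and it was the highest for Col6a2 as well. By at least 2-fold it lay above all 4 for Col2a1 and Col8a2 (4.35% of all genes), and below all 4 for no chain (0.952% of all genes). Col2a1 and Col8a2 passed the filter through WT alone, so their place above the other lines was set by the filter. Scaled to the median or matched by rank, Col3a1 and Col18a1 lay at least 2-fold below all 4 and Col8a2 was the single chain above them. Without P, Col27a1 joined the chains above.

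**Figure D2:**
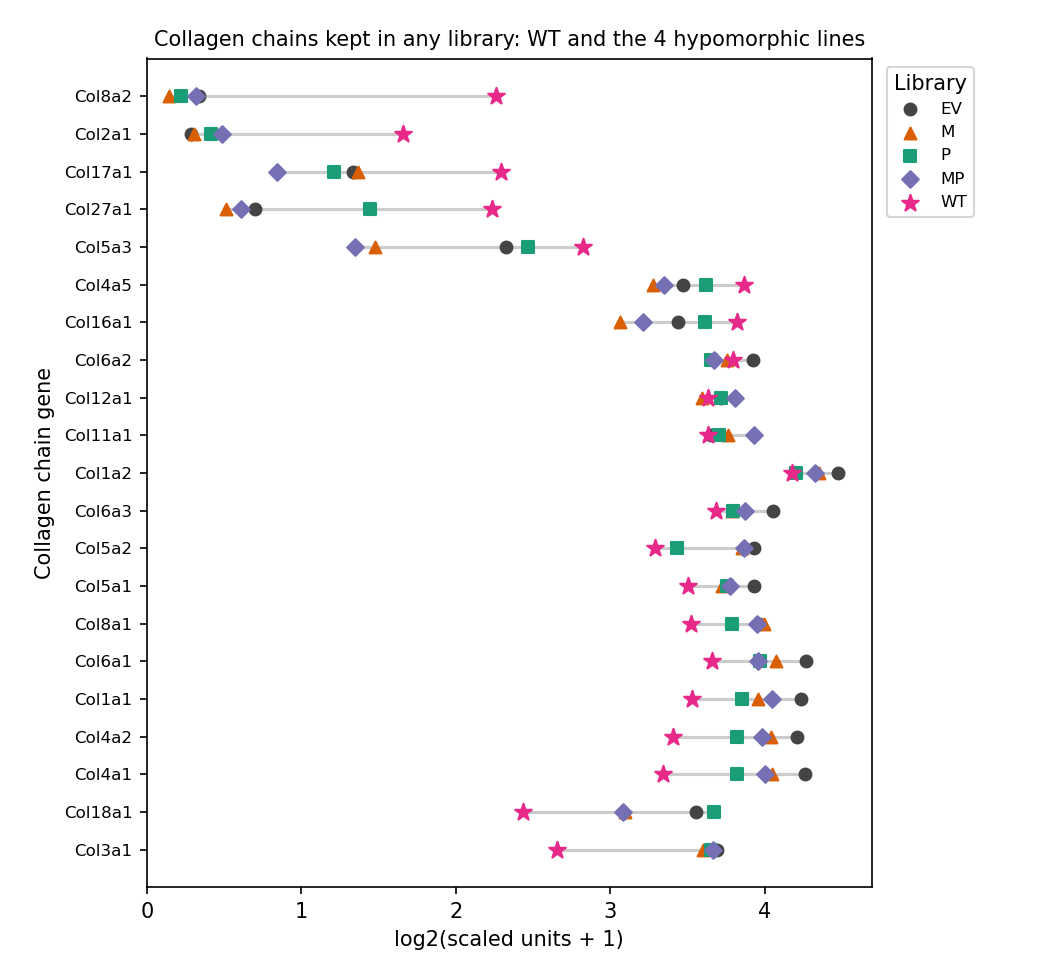
Level of the 21 collagen chains at 1 unit or more in any library, on the axis log2(scaled units + 1), with 1 symbol per library and a grey line over the range of all 5. WT (star) is the right-most symbol in the top 7 rows, where Col8a2 stands at 3.78 units against at most 0.263. Col8a2 and Col2a1 in these rows were kept through WT alone. WT is the left-most symbol in the lower 12 rows, ending with Col3a1 at 5.29 units against at least 11.1.

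Class medians in WT were as follows. Basement membrane chains had a median log2 difference from EV of -0.80, beaded chains of -0.37 and fibrillar chains of -0.30. The median over all genes was -0.04. Matched by rank they were -0.84, -0.15 and -0.08, against -0.02 over all genes. Against P in place of EV they were -0.41, -0.11 and -0.06, against -0.03 over all genes. Matched by rank against P they were -0.64, -0.08 and -0.02, against -0.04 over all genes, so fibrillar chains were not lower than all genes there. These medians rest on 3 basement membrane, 3 beaded and 9 fibrillar chains, and the basement membrane chain Col4a5 went the other way (0.40 against EV). Of the 9, Col2a1 and Col27a1 passed the filter against EV through WT alone, so they had to lie above 0 and raised the fibrillar median. Scaled to the median, all genes stood at -0.44 and the fibrillar chains at -0.73. Since that scaling lowers all genes, a class already below 0 stays there. The median of the FACIT chains Col12a1 and Col16a1 was 0.15, but -0.27 when libraries were scaled to the median. Over all 21 kept chains, with Col8a2 also kept through WT alone, the median was -0.30 against EV and -0.09 against P. Matched by rank it was -0.08 and -0.05. The range of high values was widest in EV and narrowest in WT, and its part in these shifts was not tested.

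Col4a1 and Col4a2, which together form the common type IV molecule, moved as a pair. Col4a1 stood at 18.2 units (EV), 15.5 (M), 13.1 (P), 15.1 (MP) and 9.15 (WT). Col4a2 stood at 17.5, 15.5, 13.1, 14.8 and 9.61. The libraries keep the same order for both genes, and the ratio of the levels stayed between 0.952 and 1.04. RefSeq places these genes side by side on chromosome 8, on opposite strands, with start sites 21 bases apart, and their promoter windows share 78 bases.

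Another head-to-head pair did not share its level. Col4a5, which is mutated in Alport syndrome of the kidney, stood at 10.1 units (EV), 8.68 (M), 11.3 (P), 9.18 (MP) and 13.6 (WT). Its neighbour on the X chromosome, Col4a6, stood at no more than 0.412 units in any library. The start sites in RefSeq are 1343 bases apart. The Col4a6 window holds the Pbx composite TGATTGAC at -40, overlapped by the Meis and Prep core at -36, and it is the single collagen window of 34 with the composite, which 0.77% of all windows hold.

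Type VI collagen is assembled from Col6a1, Col6a2 and Col6a3. Col6a1 stood at 18.3 units (EV), 15.8 (M), 14.7 (P), 14.54 (MP) and 11.7 (WT), so WT was lowest. Col6a2 stood at 14.2, 12.5, 11.6, 11.8 and 12.9, with WT inside the range of the others. The long chain Col6a3, which carries most of the globular domains of the filament, stood at 15.6, 12.8, 12.9, 13.6 and 11.8. The ratio of Col6a1 to Col6a2 was 0.903 in WT and 1.24 to 1.29 elsewhere. Col6a1 is the one collagen chain with an AP-1 match in its window, against 7.81% of all windows, and its upstream 250 bases are shown for that reason (GRCm38.p6, chr10:76726045-76726294, minus strand), with the match in capitals, which reads as AP-1 on both strands.
Col6a1: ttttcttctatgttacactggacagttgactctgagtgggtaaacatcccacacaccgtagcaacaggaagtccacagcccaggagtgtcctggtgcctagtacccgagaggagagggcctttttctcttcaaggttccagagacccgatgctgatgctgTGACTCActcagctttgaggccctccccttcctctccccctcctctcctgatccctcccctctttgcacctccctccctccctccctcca

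Addition of Meis1 was examined in M against EV and in MP against the library labelled P. No kept chain was 2-fold apart from EV in M (0 of 18, against 0.299% of all genes higher and 0.58% lower). In MP against P, 1 of 19 chains was at least 2-fold lower, namely Col5a3, and none higher, against 0.765% and 0.214% of all genes. In M against EV the median over the kept chains was -0.18, against -0.01 over all genes, and 15 of 18 chains were below 0, as were 51.4% of all genes. Against P, the median in MP was 0.02, the same as over all genes, and -0.07 when values were matched by rank.

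Col5a3, a fibrillar chain that pairs with other type V chains, stood at 4.02 (EV) and 4.52 units (P) but at 1.78 (M) and 1.55 (MP), and at 6.07 (WT). Both libraries with added Meis1 were therefore below both without it, with log2 differences of -0.85 for M from EV and -1.12 for MP from P. Scaled to the median or matched by rank, the MP difference from P was under 2-fold. Col18a1 showed the same order, at 7.57 (M) and 7.48 (MP) units against 10.8 (EV) and 11.7 (P) (log2 -0.46 and -0.59).

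This order of the libraries, both M and MP below both EV and P, was found in 5 of 19 kept chains and in 18.9% of all genes. It was noticed after the values were seen. The other chains were Col27a1, Col16a1 (EV 9.86, M 7.34, P 11.3 and MP 8.27 units) and Col4a5. The opposite order was found for Col11a1 alone, against 20.5% of all genes. The 5 chains cover 4 classes, and WT, with Meis1 at 11.998 units, held a higher level than all 4 hypomorphic lines for Col5a3, Col16a1, Col4a5 and Col27a1 but a lower one for Col18a1. When libraries were scaled to the median, Col5a3 and Col18a1 kept this order and Col27a1, Col16a1 and Col4a5 lost it, and matched by rank Col27a1 lost it.

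**Figure D3:**
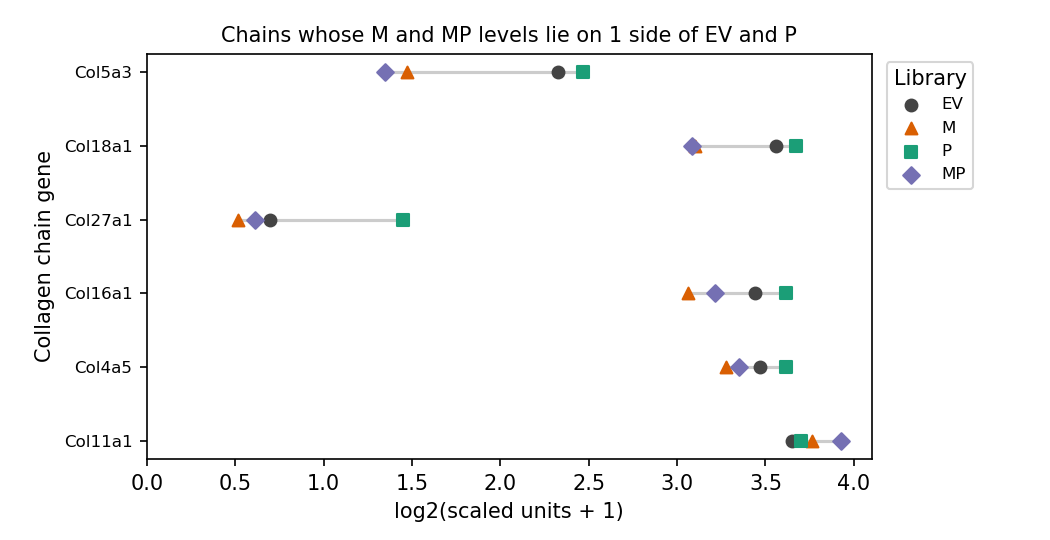
Level of 6 collagen chains in the 4 hypomorphic libraries on the axis log2(scaled units + 1), with 1 symbol per library and a grey line over their range. M (triangle) and MP (diamond) lie left of EV (circle) and P (square) in the upper 5 rows, with the widest gap for Col5a3 (1.78 and 1.55 against 4.02 and 4.52 units), and right of them for Col11a1, but with libraries scaled to the median Col27a1, Col16a1 and Col4a5 lose this order, and matched by rank Col27a1 and Col11a1 do.

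The upstream 250 bases of Col5a3 (GRCm38.p6, chr9:20815068-20815317, minus strand) and Col18a1 (first of its RefSeq windows, chr10:77166531-77166780, minus strand) are shown because these chains kept the order with libraries scaled to the upper quartile or median and matched by rank.
Col5a3: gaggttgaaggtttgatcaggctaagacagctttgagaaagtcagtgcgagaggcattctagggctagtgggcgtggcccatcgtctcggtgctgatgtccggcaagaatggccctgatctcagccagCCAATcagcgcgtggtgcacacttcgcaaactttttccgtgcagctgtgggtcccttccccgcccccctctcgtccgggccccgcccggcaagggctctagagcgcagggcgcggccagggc
Col18a1: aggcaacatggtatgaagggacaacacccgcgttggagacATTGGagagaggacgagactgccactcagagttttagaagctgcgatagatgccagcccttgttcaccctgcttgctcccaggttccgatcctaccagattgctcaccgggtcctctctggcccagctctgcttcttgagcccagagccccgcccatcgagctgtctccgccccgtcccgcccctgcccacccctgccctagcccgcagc
Each holds a CCAAT box in capitals, at -122 in Col5a3 and on the minus strand at -210 in Col18a1, and neither holds the other letters searched. A CCAAT box is in 37.4% of all windows and in those of 12 of the 31 collagen chains with a window.

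The libraries labelled P and MP were compared with EV and M, the contrasts meant to show added Prep1. Pknox1 was lower in P than in EV and lower in MP than in M, so the measured RNA does not show the labelled addition. No chain was 2-fold apart in either comparison (0 of 19 in P, against 0.659% of all genes higher and 1.64% lower, and 0 of 18 in MP against M, with 0.204% and 1.18%). MP against EV gave 0 of 18 chains as well, with 0.21% of all genes higher and 1.78% lower. The largest differences of P from EV were 0.75 for Col27a1, -0.50 for Col5a2 and -0.44 for Col4a1. Those of MP from M were -0.53 for Col17a1 and 0.21 for Col12a1.

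Levels in both P and MP were below both EV and M for 7 of 19 chains, against 23.5% of all genes. These were Col1a2, Col4a1, Col4a2, Col6a1, Col6a2, Col8a1 and Col17a1. Both were above EV and M for Col12a1 alone, against 12.7% of all genes. The gaps were small, and at Col1a2 the lower pair stood at 17.4 and 19.0 units and the upper pair at 21.2 and 19.4. Matched by rank, Col1a2, Col6a1 and Col8a1 lost the order of P and MP below EV and M. Scaling to the median shifted all genes by 0.32 for MP against M. The gap of MP below M was smaller, at log2 -0.12 to -0.02, for each of the 7 chains but Col17a1 (-0.53). Under that scaling Col17a1 alone kept the order. EV and M also had the high deposited levels and the receptor signal given above, and Pknox1 was higher in them than in P and MP, so these differences between the pairs of libraries cannot be told apart. The median over kept chains was -0.18 for P and for MP against EV, but -0.02 and -0.13 matched by rank, and 0.26 for MP when libraries were scaled to the median, a scaling that puts all genes at 0.39. Relative to all genes the chains in MP stood at -0.15, and at -0.13 with that scaling.

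In the authors' deposited tables, none of the 8 chains with a completed test was called different in M. Called lower than EV were 17 of 17 in P, 11 of 11 in MP and 19 of 21 in WT, and none was called higher. Of all genes with a completed test, 98.8% (P), 99.3% (MP), 96.5% (WT) and 0.0592% (M) were called lower. Called higher were 19.5% of them in M, 0.114% in WT and none in P or MP. Those calls rest on values before the libraries were brought to 1 level.

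Genes that make, process and bind collagen were set beside the chains in 4 lists. The list of procollagen processing and crosslinking held the largest difference of all of them. Adamts2, the protease that removes the N-terminal propeptide of types I, II and III, stood at 1.43 units (EV), 1.42 (M), 1.88 (P), 1.57 (MP) and 15.5 (WT). WT thus stood far above a narrow range of hypomorphic lines (log2 2.76 over EV and 2.52 over the highest line, and 2.33 over EV with libraries scaled to the median). Lox, which crosslinks fibrils, went the other way, at 10.3 units in WT and 13.3 to 17.5 elsewhere. Adamts2 was the one gene of 11 kept in that list that was 2-fold apart in WT against EV, beside 6.44% of all genes higher and 3.01% lower. Scaled to the median, Lox (-1.13) and Sparc (-1.004) were 2-fold lower as well. Its relatives did not share this, with Adamts14 at 6.37 units in WT and 4.37 to 6.86 elsewhere and Adamts3 at no more than 0.212. Bmp1, which removes the C-terminal propeptide, stood at 12.1 to 13.98 units in all lines.

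Small leucine-rich proteins coat fibrils and limit their growth. Of 6 genes of this list kept without help from WT, 2 were 2-fold higher in WT than EV (Aspn and Omd) and none lower, beside 6.44% and 3.01% of all genes, and their median was 0.29. Scaled to the median, Bgn was 2-fold lower (-1.19) and the median was -0.05. Aspn, asporin, stood at 1.38 units (EV), 0.898 (M), 1.02 (P), 1.60 (MP) and 8.83 (WT). Omd, osteomodulin, stood at 1.48, 1.88, 1.64, 1.33 and 8.45. Both stayed 2-fold higher in WT than EV with libraries scaled to the median or matched by rank. Prelp and Lum were low in the hypomorphic lines (at most 0.437 and 0.225 units), stood at 2.83 and 1.86 in WT, and were kept through WT alone. Ogn, osteoglycin, was also highest in WT (9.93 units against 4.74 to 5.79), a difference of 0.69 from EV. Dcn, decorin, stood at 9.24 units in WT and 10.0 to 13.0 elsewhere, and Bgn, biglycan, at 8.74 and 10.2 to 15.7. In M, P and MP no gene of this list was 2-fold apart from EV.

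**Figure D4:**
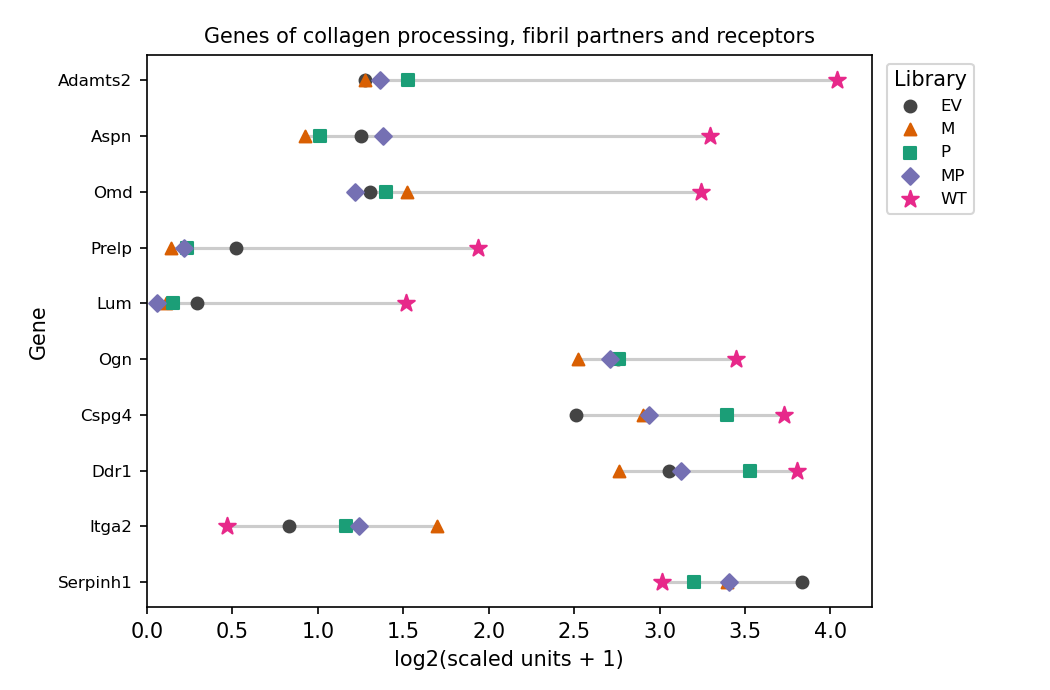
Level of 10 genes of collagen processing, fibril partners and receptors on the axis log2(scaled units + 1), with 1 symbol per library and a grey line over the range of all 5. WT (star) stands apart at Adamts2 (15.5 units against at most 1.88), Aspn (8.83 against at most 1.60) and Omd (8.45 against at most 1.88).

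Enzymes and chaperones that act on chains in the endoplasmic reticulum had no gene 2-fold apart in any of the 7 comparisons. In WT against EV 15 were kept, beside 6.44% of all genes called higher and 3.01% lower. Shares of all genes called in either direction ran from 0.204% to 6.38% in the other comparisons. In WT against EV, Serpinh1 became 2-fold lower with libraries scaled to the median (-1.21) or matched by rank (-1.07), and Fkbp10 when scaled to the median (-1.03). Serpinh1, the collagen chaperone Hsp47, stood at 13.2 units (EV), 9.51 (M), 8.20 (P), 9.62 (MP) and 7.09 (WT), so EV was high and WT low. Leprel1, a prolyl 3-hydroxylase, stood at 4.05 to 5.73 units in the hypomorphic lines and 8.80 in WT. P4ha3, a subunit of prolyl 4-hydroxylase, stood at 5.86 to 7.17 and 10.8. Of the 20 genes in that list, 3 shared a locus with another gene and Mia3 was listed at 0 throughout.

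Among collagen receptors, Cspg4, the NG2 proteoglycan, was the one gene of 8 kept that was 2-fold apart in WT against EV (12.3 against 4.70 units, log2 1.22), but P stood at 9.51. Of all genes, 6.44% were higher and 3.01% lower in WT against EV. The Cspg4 difference of WT from EV was 0.80 with libraries scaled to the median, and matched by rank Ddr1 was 2-fold higher too. Itga2, the integrin subunit that binds type I collagen on epithelium and platelets, stood at 0.783 units (EV), 2.25 (M), 1.24 (P), 1.37 (MP) and 0.382 (WT). Ddr2, the receptor kinase of fibroblasts for fibrillar collagen, stood at 13.8 to 17.0 units throughout, and its epithelial relative Ddr1 at 13.0 in WT and 5.80 to 10.6 elsewhere.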

How the data were processed

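Total RNA of 5 embryonic fibroblast cultures was sequenced, 1 library per culture. The authors deposited 4 tables that each set EV against 1 other library, and their values are FPKM per locus per the file headers. Reads went through TopHat, Cufflinks and Cuffdiff on mm9, per the submitters' processing notes, and versions, annotation and filters are not given in the sources used here. The q-value column is the authors' own and their calls are those under 0.05. Of 61082 loci, 22894 carried 1 symbol. Symbols with several loci were represented by the locus of highest mean log2(FPKM + 1). Each library was scaled to an upper quartile of 10, taken over symbols that reached 1 FPKM anywhere. EV values came from the table shared with M. A gene was kept at 1 unit or more in 1 of the libraries compared, and the pseudocount was 1. Near-identical copies, overlapping genes and strand could not be separated. Chains were named where they reached 5 units or were 2-fold apart. Of the partner lists, genes 2-fold apart and up to 3 others with the largest differences were named. Dcn, Bmp1, Adamts3, Adamts14, Ddr2, Itga2, Sparc and Fkbp10, and chains under 5 units named for their tissue, were singled out after values were seen. Alternatives were other scalings, pseudocounts and filters, summed loci and libraries left out. Partner lists were also run with the other scalings and without genes kept through WT alone, alternatives chosen after seeing the data. Members and lists were chosen with earlier results of these data known. Promoter windows are those of RefSeq on GRCm38.p6, found for 31 of 40 chains. Python 3.11.15, pandas 2.3.3 and numpy 2.4.6 were used. The scaling and 2-fold rule were run on simulated copies of the EV library with known fold changes. Those copies differed from EV in level and small noise only, so differences in range and floor between the real libraries were not tested.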

Additional observations from a re-analysis of the deposited data

Results flagged for a closer look

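The difference of M from EV and that of MP from the library labelled P had opposite signs at 4 of 19 chains kept in the hypomorphic lines, counting differences of at least 0.1 in both. The same was found at 14.7% of all genes. Pknox1 was lower in P (0.534 units) and MP (0.542) than in EV (2.06) and M (3.11), so the measured RNA does not show added Prep1 in the second difference. Each arm is 1 library, so the difference between the arms was not tested. Col1a1 had a log2 difference of -0.28 in M from EV and 0.19 in MP from P. Its partner chain Col1a2 had -0.13 and 0.12. The type IV chain Col4a1 had -0.21 and 0.18, and Col4a2 had -0.17 and 0.16. EV was the highest library and P the lowest hypomorphic library for each of them. With libraries scaled to the median, Col1a1 alone of the 4 met the rule (-0.17 and 0.54), and matched by rank none did, with MP differences from P of 0.089, 0.055, 0.094 and 0.067 for Col1a1, Col1a2, Col4a1 and Col4a2.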

How the results depend on the processing

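Of 672 differences of single chains recomputed with another scaling, a pseudocount of 0.1, summed loci or another EV column, 21 crossed the 2-fold line and none that was 2-fold apart changed sign. Scaling to the median shifted all genes by -0.41 for WT against EV and 0.43 for MP against EV. Under it 7 chains were lower in WT than EV, 1 was higher and 2 lower in WT than P, 0 lower in MP than P, 1 above and 2 below all hypomorphic lines in WT, and 2 lower and 3 higher in both M and MP than in EV and P. Matching by rank, an alternative chosen after seeing the data, gave 1 higher and 2 lower in WT than P, 0 lower in MP than P, 1 above and 2 below all lines in WT, and 8 lower in M and MP. A pseudocount of 0.1 gave 4 above and 1 below all lines in WT, 2 lower in WT than P, 2 lower in MP than P, 1 higher in P than EV, and 1 lower in each of M and MP than EV. With genes kept at 5 units or more, 0 chains were higher in WT than EV or P, 0 above all lines, 0 lower in MP than P and 3 lower in M and MP, since the chains higher in WT are low throughout. On deposited FPKM, which carry the level of each library, 23 chains were higher and 2 lower in M than EV, 40 lower in P, 40 lower in MP and 0 higher and 36 lower in WT, and MP had 38 lower than M and 2 lower than P. Leaving out 1 hypomorphic line at a time left 2 to 3 chains above and 0 below all others in WT, and leaving out P and MP together, or EV and M together, gave 3 and 0. Summed loci and the EV column of each table left every count of 2-fold chains as it was. Read depth is unknown, so no counting error could be given.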

Other observations

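Some collagen chains lay at loci shared with another gene and were not members. The locus of Col7a1, the anchoring fibril chain of skin, and the microRNA gene Mir711 stood at 4.13 units (EV), 2.79 (M), 4.33 (P), 1.92 (MP) and 4.09 (WT), so M and MP were the low libraries there as well. Col11a2 shared a locus with Rxrb, Col20a1 with Arfgap1 and Col23a1 with Agxt2l2, and the part of each gene in those values cannot be told apart. A further locus of Col5a1, besides the one used, stood at 4.63, 5.41, 6.01, 3.91 and 7.95 units in EV, M, P, MP and WT. WT was highest at this locus but lowest at the main Col5a1 locus. A further locus of Col4a1 stood at 1.52, 1.87, 1.38, 1.67 and 2.42 units, again highest in WT, where the main locus was lowest. What these further loci transcribe was not tested.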
